A study of Homo sapiens with 3 samples.

Results

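The 8 genes described here encode enzymes of the folate one-carbon cycle: MTHFD1, MTHFD1L, MTHFD2, MTHFD2L, MTRR, ALDH1L1, ALDH1L2 and MTHFS. They were picked by name as enzymes of this cycle, by a rule that holds no measured value, though earlier results of these data were known, and all 8 were found by their Ensembl identifiers among the 62754 genes of the deposited table. RNA was sequenced from MCF10A, an immortalised human line from breast epithelium that does not form tumours. Every sample carried the empty vector (EV) of a retroviral, doxycycline-inducible expression system without any inserted gene, had been selected with puromycin, and was harvested without doxycycline or other treatment. There were 3 replicates in 1 batch, each made from 300 ng of RNA after removal of ribosomal transcripts. All samples belong to 1 condition, so comparisons run between genes within a replicate. The labels do not say whether the replicates came from separate cultures, so the spread between them may be partly technical.

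Folate cofactors carry single carbon units at several oxidation states, and cells run the same interconversions in the cytosol and in mitochondria. In proliferating cells the mitochondrial branch usually takes the carbon of serine and releases it as formate, and the cytosolic branch spends formate-derived units on purines, on thymidylate and on the remethylation of homocysteine to methionine. The cytosolic enzymes considered are MTHFD1, which carries the dehydrogenase, cyclohydrolase and formyl-tetrahydrofolate synthetase activities in a single protein, ALDH1L1, which oxidises formyl-tetrahydrofolate to carbon dioxide, MTHFS, which returns folinate to the active pool, and MTRR, which reactivates methionine synthase. The mitochondrial enzymes are MTHFD2 and its paralog MTHFD2L, which act as dehydrogenase and cyclohydrolase, MTHFD1L, which releases formate, and ALDH1L2, the counterpart of ALDH1L1.

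The values are TPM, a unit that corrects each gene's reads for gene length and then brings every sample to the same total of 1000000, so that levels of different genes can be set side by side. The replicates held 15273329, 15446347 and 11166546 reads recovered on annotated genes. Structural non-coding RNAs, taken by gene type and including ribosomal RNAs of the mitochondrial genome, took 6.20%, 7.30% and 18.3% of TPM in replicates 1, 2 and 3. All 8 markers of breast epithelium that were checked lay at or above 1 TPM, from EPCAM at 14.6 TPM to KRT5 at 6612 TPM. EPCAM and CDH1 on this list are not specific to basal cells. Of 9 markers of other cell types or of hormone receptor expression, 3 did so, namely PECAM1 at 1.77, COL1A1 at 4.96 and DCN at 9.05 TPM, while CD3E and ALB had 0 reads. The summed level of these 9 markers lay between 15.3 and 16.4 TPM, against 14244 to 18003 TPM for the breast epithelial list.

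The pairs of paralogous enzymes were compared at the level of sequence first, since their levels can be set against each other only if reads tell them apart. Between the coding sequences of MTHFD2 and MTHFD2L, 70.3% of 998 aligned bases were identical, and the longest run without a mismatch was 20 bases. For ALDH1L1 and ALDH1L2 it was 68.9% of 2698 bases with a longest run of 20, and for MTHFD1 and MTHFD1L 65.7% of 2744 bases with a longest run of 14. For MTHFD1 and MTHFD2 the longest run was the shortest of the 4 pairs, at 11 bases. Their coding sequences have 2805 and 1050 bases, and gaps do not count in the percentage. Their identity, 73.8% of 1049 aligned bases, thus cannot be ranked against that of the other pairs. The windows below are the stretches of hg38 around the longest shared run of MTHFD2 (chr2:74209942-74210001, plus strand) and MTHFD2L (chr4:74201263-74201322, plus strand), both inside a coding exon, with capitals where both copies hold the same base. Of 60 bases, 48 were identical.
MTHFD2: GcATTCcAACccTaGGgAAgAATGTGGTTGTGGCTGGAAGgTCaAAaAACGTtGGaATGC
MTHFD2L: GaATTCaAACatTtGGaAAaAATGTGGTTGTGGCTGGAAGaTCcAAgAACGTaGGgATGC
The same display for ALDH1L1 (chromosome 3, minus strand) and ALDH1L2 (chromosome 12, minus strand) is taken from the spliced coding sequence across an exon junction, where 50 of 60 bases were identical.
ALDH1L1: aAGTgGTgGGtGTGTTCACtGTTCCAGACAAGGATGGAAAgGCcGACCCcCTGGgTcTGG
ALDH1L2: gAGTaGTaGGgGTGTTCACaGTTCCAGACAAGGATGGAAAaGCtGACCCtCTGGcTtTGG
No stretch of 50 bases in the canonical transcript of any of the 8 genes was found in a transcript of another of them.

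Pseudogenes are the closer neighbours in sequence. Of the 50-base stretches in the MTHFD2 coding sequence, 11.1% also occurred in transcripts of other genes outside the locus, among them the processed pseudogenes MTHFD2P5, MTHFD2P6 and MTHFD2P7, and 7.40% of those of MTHFD1 occurred in MTHFD1P1. All 7 annotated MTHFD2 pseudogenes had 0 reads in every replicate, and MTHFD1P1 had 3 reads in all. How reads that fit several places were counted is not given in the sources used here. Whether the values of MTHFD2 and MTHFD1 lack reads from these stretches was not tested.

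Of the 8 enzymes, 7 had a mean of at least 1 TPM, the level at which the study counted an enzyme as expressed when it built its metabolic model, and the same 7 reached it in every replicate. Over all genes in the table this share was 24.9%, and over protein-coding genes it was 56.7%. By mean TPM, all 4 mitochondrial enzymes and 3 of the 4 cytosolic enzymes thus reached this cutoff, with MTHFS below it. Which of their reactions the study's model kept was not examined. The median over the 8 enzymes was 65.3 TPM, and the median over the 11360 protein-coding genes at or above 1 TPM was 24.9 TPM.

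**Figure D1:**
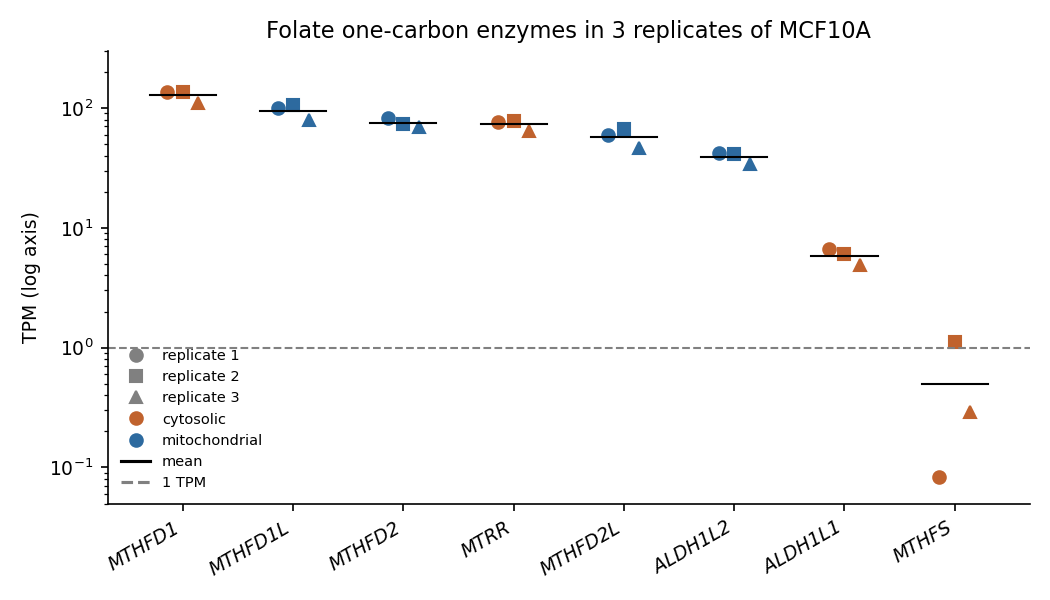
TPM on a log axis for each of the 8 enzymes, ordered by mean, with a symbol for each replicate, a bar for the mean and a dashed line at 1 TPM. From MTHFD1 to ALDH1L2 the values lie between 33.9 and 136.6 TPM, ALDH1L1 lies between 4.85 and 6.65 TPM, and MTHFS crosses the line in replicate 2 only.

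MTHFD1 (ENSG00000100714, chromosome 14 of hg38 from 64388031 to 64463457, plus strand) was the highest of the 8 by deposited TPM. Its reads numbered 4869, 5024 and 3323 in replicates 1, 2 and 3, which gave 136.1, 136.6 and 109.2 TPM, with a mean of 127.3 ± 15.7 TPM (SD, n = 3). Its mean was above that of 89.6% of the protein-coding genes at or above 1 TPM. Replicates 1 and 2 were nearly equal. Replicate 3 was the lowest, as it was for each enzyme at or above 1 TPM.

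MTHFD1L, the mitochondrial formyl-tetrahydrofolate synthetase (ENSG00000120254, chromosome 6 from 150865679 to 151101887, plus strand), was measured at 100.3, 105.4 and 79.2 TPM, with a mean of 94.99 ± 13.9 TPM (SD, n = 3). It was lower than MTHFD1 in each replicate, by a log2 difference of -0.43 ± 0.05 (SD, n = 3), so that MTHFD1 was 1.34-fold higher. The exact sign-flip permutation test over replicates gave p = 0.25 (two-sided), the smallest value that 3 replicates allow. The same p, and 0.25 after Benjamini-Hochberg adjustment over the 5 pairs tested, holds for each pair below, so that no pair could reach 0.05.

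MTHFD2, the mitochondrial dehydrogenase and cyclohydrolase that is low in most differentiated adult tissues and high in many proliferating cells (ENSG00000065911, chromosome 2 from 74186172 to 74217565, plus strand), was measured at 81.7, 73.7 and 69.8 TPM, with a mean of 75.04 ± 6.08 TPM (SD, n = 3). Its paralog MTHFD2L (ENSG00000163738, chromosome 4 from 74114174 to 74303099, plus strand) was measured at 59.8, 66.7 and 46.0 TPM, with a mean of 57.5 ± 10.6 TPM (SD, n = 3). MTHFD2L was the lower in each of the 3 replicates, by -0.40 ± 0.23 on the log2 scale (SD, n = 3). The gap was small in replicate 2, where it was -0.14, and widest in replicate 3, where it was -0.60. MTHFD2 was lower than MTHFD1 by -0.76 ± 0.12 on the log2 scale (SD, n = 3), again in each replicate.

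The widest gap between counterparts was that of the formyl-tetrahydrofolate dehydrogenases, which remove carbon units from the folate pool. ALDH1L2 (ENSG00000136010, chromosome 12 from 105019784 to 105107643, minus strand) was measured at 42.0, 41.2 and 33.9 TPM, with a mean of 39.04 ± 4.47 TPM (SD, n = 3). ALDH1L1 (ENSG00000144908, chromosome 3 from 126103562 to 126197994, minus strand), a gene best known for its high expression in liver and in astrocytes, was measured at 6.65, 6.07 and 4.85 TPM from 161, 151 and 100 reads, with a mean of 5.86 ± 0.916 TPM (SD, n = 3). The gene of the mitochondrial enzyme was higher in each replicate, between 6.32-fold and 6.99-fold, and the values of both genes did not overlap. In a bulk sample, a low level in every cell and a higher level in a part of the cells cannot be told apart, which bears on ALDH1L1 in particular.

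MTRR (ENSG00000124275, chromosome 5 from 7851186 to 7906025, plus strand) was measured at 77.0, 77.7 and 64.5 TPM, with a mean of 73.1 ± 7.41 TPM (SD, n = 3). MTR, the methionine synthase that MTRR reactivates, named here after its value was seen, was measured at 74.8, 84.2 and 62.1 TPM, so the ranges of both partners overlapped. MTRR and MTHFD2 were the only neighbours in the order of levels that did not differ beyond their spread, with a log2 difference of 0.04 ± 0.10 (SD, n = 3) and MTHFD2 the higher in 2 of 3 replicates. By deposited TPM the order was MTHFD1, MTHFD1L, MTHFD2 with MTRR, MTHFD2L, ALDH1L2, ALDH1L1 and MTHFS, and each other step had the same direction in all 3 replicates.

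Summed over 4 genes each, the mitochondrial enzymes held 283.8, 287.0 and 228.9 TPM and the cytosolic enzymes 219.8, 221.5 and 178.9 TPM in replicates 1, 2 and 3. The log2 ratio of the mitochondrial to the cytosolic sum was 0.37 ± 0.01 (SD, n = 3), a 1.29-fold higher sum for the mitochondrial enzymes. The exact sign-flip permutation test of this ratio was at its smallest value of p = 0.25 (two-sided). The direction of this ratio depended on gene length. The deposited TPM divides the reads of each gene by the length of its longest annotated transcript, as the whole numbers of reads returned with that length show. With the length of the canonical transcript in its place, the log2 ratio was -0.13 ± 0.002 (SD, n = 3), and the cytosolic sum was 1.09-fold the higher. For MTHFD1 alone against MTHFD1L, MTHFD2 and MTHFD2L, chosen after seeing the data, it was 0.05 ± 0.007 at that length (SD, n = 3). The direction thus also depended on which genes were summed. Gene-level values do not show which transcripts of MTHFD1 were present, so the direction between branches is left without a call.

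**Figure D2:**
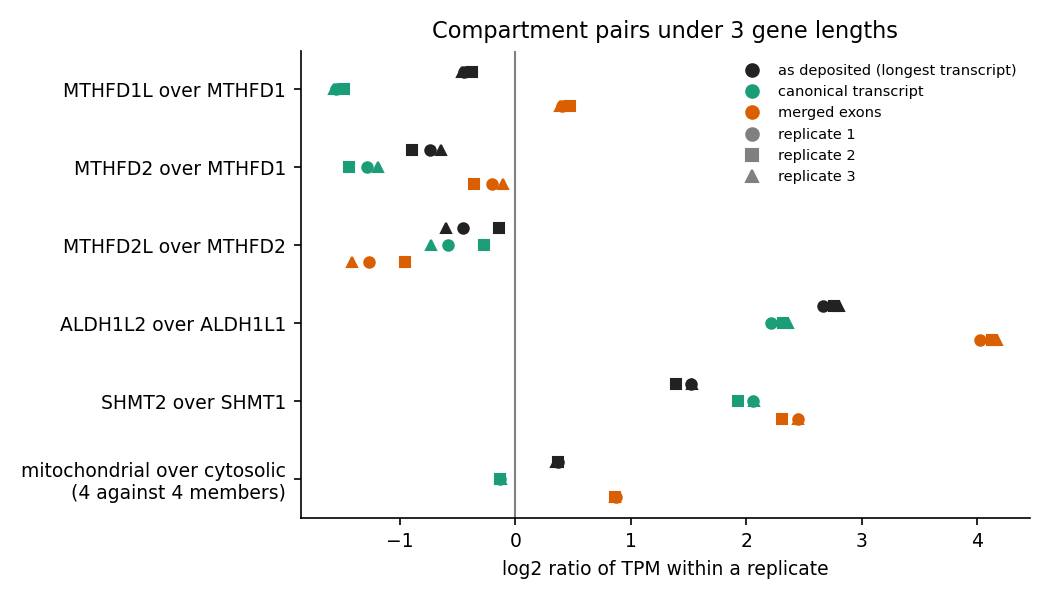
Log2 ratio of TPM within each replicate for 5 pairs of enzymes and for the sums of both branches, under the deposited gene lengths, the canonical transcript and the merged exons of all transcripts, with a symbol for each replicate. The pairs ALDH1L2 over ALDH1L1 and SHMT2 over SHMT1 lie right of 0 under all 3 lengths, the sum of branches lies left of 0 with the canonical transcript only, and MTHFD1L over MTHFD1 lies right of 0 with merged exons only.

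MTHFD1 was the enzyme whose level hung most on this choice. Its longest annotated transcript has 6814 bases against 3154 in the canonical transcript, a ratio of 2.16, whereas 6.68% of protein-coding genes at or above 1 TPM have a ratio over 2 and the median ratio is 1. With the canonical length MTHFD1 stood at 224.1 ± 24.96 TPM (SD, n = 3). The longest transcripts of MTHFD2, MTHFD2L and ALDH1L1 are annotated as retaining an intron and have 6506, 3181 and 4604 bases, against 4403, 2355 and 3064 bases in their canonical transcripts. MTHFD1L and MTRR have ratios of 1.01 each. Rescaling to canonical lengths moved the median gene at or above 1 TPM by -0.29 on the log2 scale. Relative to that shift MTHFD1 moved by 1.11, ALDH1L1 by 0.59, MTHFD2 by 0.56, MTHFD2L by 0.43 and ALDH1L2 by 0.14, whereas MTHFD1L and MTRR moved with the median gene.

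**Figure D3:**
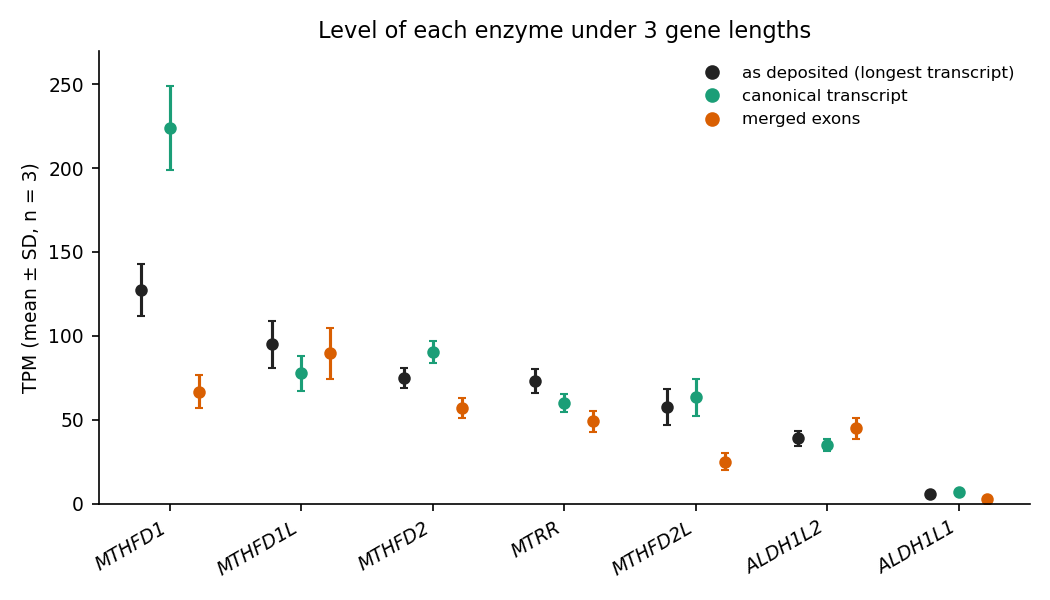
Mean TPM with SD over 3 replicates for the 7 enzymes at or above 1 TPM, computed with the deposited lengths, the canonical transcript and the merged exons. MTHFD1 ranges from 66.7 TPM with merged exons to 224.1 TPM with the canonical transcript, while MTHFD1L stays between 77.6 and 94.99 TPM.

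Some relations held under each of the 3 lengths tried. MTHFD2L was lower than MTHFD2 in each replicate, MTHFD2 was lower than MTHFD1, and ALDH1L1 was lower than ALDH1L2 by at least 4.64-fold in each replicate. The pair MTHFD1L over MTHFD1 turned from -1.53 with the canonical length to 0.42 with merged exons on the log2 scale. Which of the pair was higher thus depended on the length used.

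MTHFS (ENSG00000136371, chromosome 15 of hg38 from 79833585 to 79897379, minus strand) was measured at 0.0826, 1.12 and 0.291 TPM in replicates 1, 2 and 3, with a mean of 0.499 ± 0.551 TPM (SD, n = 3). These values stand on 1, 14 and 3 reads, for which exact Poisson intervals (95%, counting error only) run from 0.0253 to 5.57, from 7.65 to 23.5 and from 0.619 to 8.77 reads. Replicate 2 alone reached 1 TPM, and its interval did not overlap that of replicate 1. Without replicate 2 the mean was 0.187 TPM. Most of MTHFS is annotated again, within other genes of its strand, and the part of this in its low value was not tested. The readthrough gene ST20-MTHFS runs on the same strand and contains coding exons 2 and 3 of MTHFS whole, that is 492 of 609 coding bases or 80.8%. A non-coding gene on the same strand, ENSG00000261229, covers a further 758 bases of the last exon. In all, 57.1% of the canonical transcript is shared in this way, against 0% for each of the other 7 enzymes, and both overlapping genes were listed at 0 TPM in every replicate.

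By annotation, only reads that reach the 988 unshared bases of the canonical transcript belong to MTHFS alone. Where its reads lay was not tested, so the values that follow assume that every read fell in those bases. Divided by these 988 bases in place of the full length, without rescaling, its reads came to 0.192, 2.62 and 0.677 TPM, with a mean of 1.16 ± 1.28 TPM (SD, n = 3), which brings the count of enzymes at or above 1 TPM to 8. Again replicate 2 alone lay above 1 TPM, and without it the mean was 0.435 TPM and the count 7. The mean of MTHFS was 0.499, 0.407 and 0.509 TPM with the deposited, canonical and merged exon lengths, each below the cutoff. It passed 1 TPM only per unshared base, a step applied to this gene's reads without rescaling, and there it rested on 1 library.

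Overlap on the opposite strand was found for 5 of the 8 enzymes. It was largest in MTHFD2, where exons of other genes lie opposite 36.8% of the canonical transcript, 30.1% of it opposite SLC4A5. SLC4A5 itself was listed at 0, 0 and 0.0340 TPM. Whether strand was used in counting is not given in the sources used here, and its part in the value of MTHFD2 was not tested.

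Between replicates, the SD of log2(TPM + 1) of the 7 enzymes at or above 1 TPM lay between 0.11 for MTHFD2 and 0.27 for MTHFD2L, with 4 of 7 below the median of 0.19 over the 15640 genes at or above 1 TPM. All 6 enzymes at or above 10 TPM were lower in replicate 3 than the mean of replicates 1 and 2. The corresponding log2 ratio had a median of -0.24 over the 8809 genes at or above 10 TPM, and 4 of the 6 enzymes lay between the quartiles of -0.35 and -0.13. The others were MTHFD1L at -0.38 and MTHFD2L at -0.46. MTHFD2 fell by 0.15, the smallest drop of the 6. The share of structural non-coding RNAs moved with replicate 3, as given above, and its part in these ratios was not tested. With each replicate scaled by its median ratio over genes at or above 10 TPM, the SD fell to 0.02 for MTRR, 0.03 for ALDH1L2 and 0.05 for MTHFD1, and MTHFD2L kept the highest SD of the 7 at 0.15. MTHFD2, the steadiest enzyme before scaling, went from 0.11 to 0.08, and the median over all genes at or above 1 TPM went from 0.19 to 0.13.

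**Figure D4:**
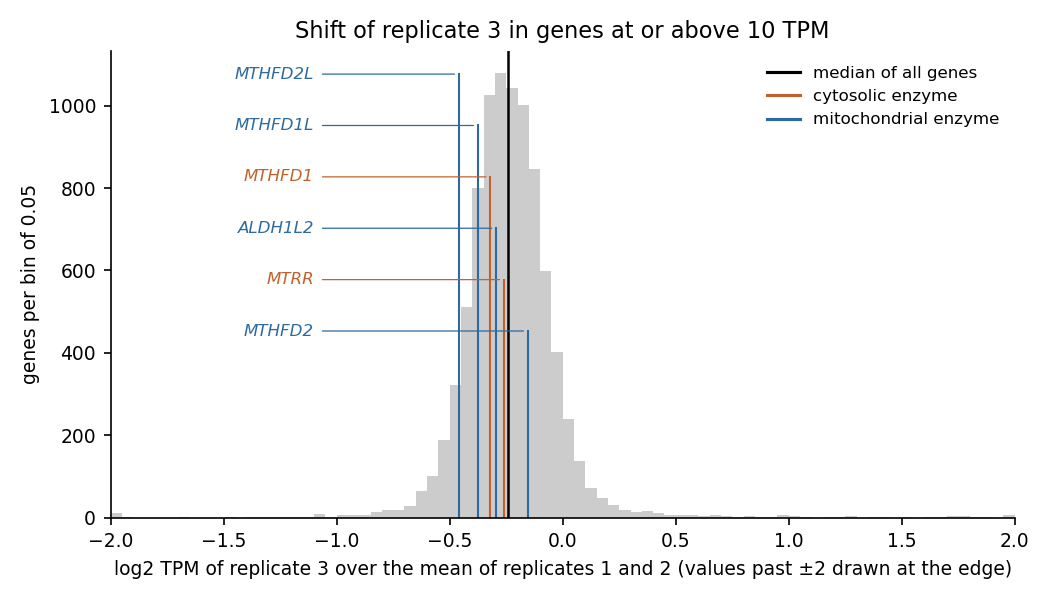
Histogram of the log2 ratio of replicate 3 to the mean of replicates 1 and 2 over 8809 genes at or above 10 TPM, with a black line at the median of -0.24 and a coloured line for each of the 6 enzymes at that level. The enzymes lie between -0.46 for MTHFD2L and -0.15 for MTHFD2, with 4 of the 6 between the quartiles.

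The rest of the pathway was read from lists of 30 genes, of which 23 had a mean of at least 1 TPM, against 56.7% of all protein-coding genes. Of the cytosolic partners, which make thymidylate and purines from the carbon units, 5 of 6 reached 1 TPM, and TYMS, the thymidylate synthase, was the highest by deposited TPM at 317.1 ± 34.2 TPM (SD, n = 3). With canonical lengths ATIC, which closes the purine ring and is named here after its value was seen, stood above it, at 266.2 against 258.3 TPM. FTCD, which feeds carbon from histidine and is known from liver, had 2 reads in all. Of the mitochondrial partners 6 of 9 reached it, with SHMT2 the highest under both lengths. SHMT2, which moves the carbon of serine onto folate in mitochondria, was measured at 175.4, 166.1 and 139.7 TPM, and its cytosolic counterpart SHMT1 at 60.9, 63.2 and 48.4 TPM. The log2 ratio of SHMT2 over SHMT1 was 1.48 ± 0.08 (SD, n = 3), or 2.79-fold, in the same direction as ALDH1L2 over ALDH1L1. By deposited TPM, MTHFD1L over MTHFD1 and MTHFD2 over MTHFD1 went the other way, at -0.43 and -0.76. The mitochondrial partners below 1 TPM were SARDH and DMGDH, which oxidise sarcosine and dimethylglycine, with 7 and 5 reads in all, and AMT, the aminomethyltransferase of glycine cleavage. AMT had 0 reads, and other genes of its strand cover 100% of the canonical AMT transcript. How reads in shared exons were counted is not given, so these 0 reads set no upper limit on its level.

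Of the genes for transport and retention of folate, 5 of 8 reached 1 TPM. FPGS, which adds the glutamate chain that keeps folates in the cell, was the highest by deposited TPM at 92.0 ± 14.97 TPM (SD, n = 3). GGH, which removes that chain and is named here after its value was seen, stood at 21.9 TPM as deposited and at 75.1 TPM with canonical lengths, beside 74.7 TPM for FPGS. The folate receptors FOLR1, FOLR2 and FOLR3 had 6, 0 and 1 reads in all. For FOLR2, a count of 3 reads in a replicate would have come to at most 0.541 TPM. The carriers SLC19A1 and SLC46A1, named here after their values were seen, reached 44.4 ± 7.41 and 20.5 ± 2.44 TPM on average (SD over 3 replicates), above the receptors in every replicate. SLC25A32, the mitochondrial folate carrier, likewise named after its value was seen, stood at 4.44 ± 0.1397 TPM (SD, n = 3), and 88.1% of the bases in its canonical form also belong to exons of another gene on that strand. All 4 genes of methionine synthase and its cobalamin supply and all 3 of serine synthesis reached 1 TPM, with MMADHC at 225.3 ± 5.87 and PSAT1 at 154.1 ± 20.1 TPM (SD, n = 3 each) the highest of each list, also with canonical lengths.

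**Figure D5:**
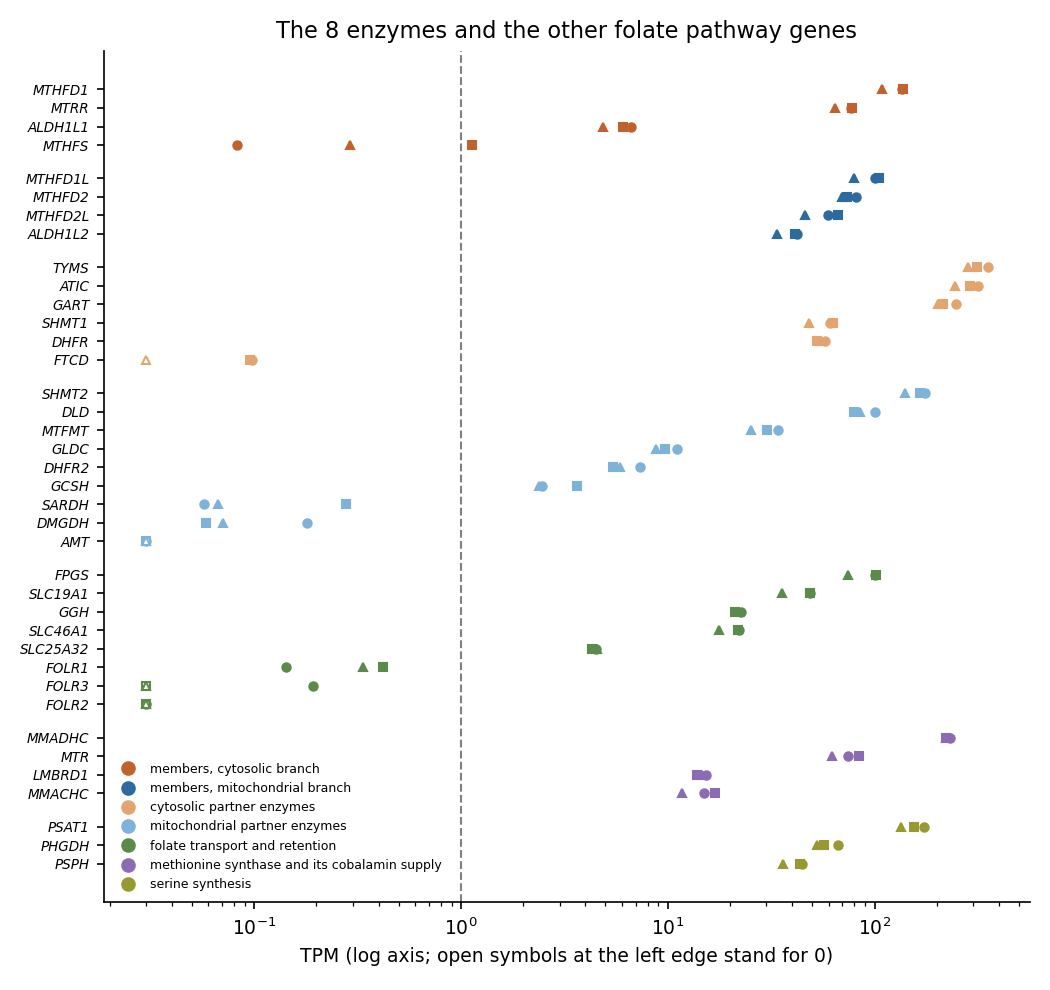
TPM on a log axis for the 8 enzymes and the 30 other pathway genes by list, with a symbol for each replicate, open symbols for values of 0 and a dashed line at 1 TPM. TYMS at 317.1 TPM leads the plot, and the 7 other pathway genes left of the line are FTCD, SARDH, DMGDH, AMT and the folate receptors.

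Promoters of 6 of the 8 enzymes were matched in RefSeq on GRCh38.p14, over 250 bases before and 50 after the gene start. ALDH1L2 and MTRR had no entry in the table used. All 6 were above the median of 58.7% G and C over 35116 promoters, between 59.7% for MTHFD1 and 79.0% for MTHFS, with 20 to 43 CpG each. The motif CCAAT, searched on both strands, was found in 3 of the 6 (MTHFD1, MTHFD1L and MTHFD2) and in 34.6% of all promoters. The E-box CACGTG was found in 2 (MTHFD1 and MTHFD1L) and in 7.26% of all, TGATGNAA in 1 (MTHFD1L) and in 3.62%, and GGGCGG in 4 and in 45.0%. These matches are letters in a window and were not tested against the levels. The 4 promoters below belong to the enzymes that carry the dehydrogenase, cyclohydrolase and synthetase steps of both compartments, with every motif match in capitals, on either strand. MTHFD2L, unlike the other 3, holds GGGCGG only. They lie at chr14:64388103-64388402, chr6:150866083-150866382, chr2:74198365-74198664 and chr4:74157868-74158167, all on the plus strand, and the RefSeq start used for MTHFD1L, 1 of 4 entries, lies 631 bases from the start of its canonical transcript.
MTHFD1: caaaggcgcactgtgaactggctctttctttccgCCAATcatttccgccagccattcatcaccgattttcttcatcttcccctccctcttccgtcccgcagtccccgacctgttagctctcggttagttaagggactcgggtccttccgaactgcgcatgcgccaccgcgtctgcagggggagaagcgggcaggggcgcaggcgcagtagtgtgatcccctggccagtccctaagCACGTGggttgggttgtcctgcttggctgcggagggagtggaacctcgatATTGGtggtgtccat
MTHFD1L: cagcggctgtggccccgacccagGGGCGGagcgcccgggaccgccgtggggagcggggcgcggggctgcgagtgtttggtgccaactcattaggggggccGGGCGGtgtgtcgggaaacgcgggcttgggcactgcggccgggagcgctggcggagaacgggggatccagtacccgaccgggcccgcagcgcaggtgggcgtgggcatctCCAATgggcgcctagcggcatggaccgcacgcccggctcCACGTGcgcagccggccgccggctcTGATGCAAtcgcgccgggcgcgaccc
MTHFD2: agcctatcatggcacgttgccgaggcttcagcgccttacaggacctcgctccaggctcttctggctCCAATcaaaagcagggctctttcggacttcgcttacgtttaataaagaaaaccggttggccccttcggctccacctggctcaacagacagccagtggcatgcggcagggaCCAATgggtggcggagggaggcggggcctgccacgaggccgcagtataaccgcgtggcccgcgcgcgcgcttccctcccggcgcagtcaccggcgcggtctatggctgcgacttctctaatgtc
MTHFD2L: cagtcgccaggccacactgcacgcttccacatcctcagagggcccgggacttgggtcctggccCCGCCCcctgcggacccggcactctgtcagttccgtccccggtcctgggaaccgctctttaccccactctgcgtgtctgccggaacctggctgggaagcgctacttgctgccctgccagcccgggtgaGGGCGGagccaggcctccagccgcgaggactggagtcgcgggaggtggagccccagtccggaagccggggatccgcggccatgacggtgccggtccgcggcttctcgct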

How the data were processed

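RNA-seq was analysed in 3 EV replicates of MCF10A. The authors deposited 1 table of TPM, made from reads that were quality controlled, mapped to hg38 and counted with Seq2science. STAR, fastp and MultiQC are named in the submitters' processing notes. The annotation release, strand setting and filters are not given in the sources used here. Columns were matched by library name.

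Genes were matched to GENCODE release 44 (62700 of 62754). Reads were recovered as TPM times the length of the longest transcript, less 1 base per exon, divided by the smallest value above 0. This gave whole numbers, within 0.02 reads, for 100% of genes. Levels with canonical and merged exon lengths were computed from these reads. Ratios within replicates were tested by exact sign-flip permutation. Named genes are all 8 enzymes, SHMT1, SHMT2, the highest gene of each pathway list and listed genes below 1 TPM. Genes sharing bases on the same strand with an enzyme, and its pseudogenes, are also named. Cell type markers, SLC4A5 and the genes marked as such in the text were named outside this rule, after their values were seen. The genes and lists were chosen with earlier results of these data known. Alternatives covered the cutoff, scaling, pseudocount, filter, gene length and each replicate left out. Recovery was run on simulated data built with the same lengths, so that run could not test the choice of lengths. Coding sequences were aligned with Biopython 1.88. Other tools were scipy 1.17.1, pandas 2.3.3, matplotlib 3.10.9 and numpy 2.4.6 under Python 3.11.15.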

Additional observations from a re-analysis of the deposited data

How the results depend on the processing

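No paired analysis was possible because there is no other group whose replicate numbers could match. The ratios within a replicate set genes, not samples, side by side. The count of 7 enzymes and the count of 23 pathway genes at or above 1 TPM were the same under the other cutoffs, scalings and lengths and without any 1 replicate. The exception, chosen after seeing the data, was to count reads per unshared base, which gave 8 enzymes, and between 7 and 8 with a replicate left out. At the cutoff of 0.5 TPM, MTHFS fell short narrowly, with a mean of 0.4994 TPM. That mean was 0.569 TPM with protein-coding genes summing to 1000000 and 0.407 TPM with canonical lengths. The lower cutoff was not combined with these settings. Leaving out members below 1 TPM could not apply to the pairs, which hold none.

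The log2 ratio of the mitochondrial to the cytosolic sum, 0.37 in the report, turned to -0.13 with canonical transcript lengths and was 0.87 with merged exons, an alternative chosen after seeing the data. With the deposited lengths it was 1.87 as the mean of log2(TPM + 1) over members, 1.00 without MTRR and 0.69 with SHMT1 and SHMT2 added. For MTHFD1 against MTHFD1L, MTHFD2 and MTHFD2L, also chosen after seeing the data, it was 0.84 as deposited. That last comparison was 0.05 with canonical lengths and 1.36 with merged exons. With canonical lengths and with merged exons, MTHFD1L over MTHFD1 was -1.53 and 0.42, MTHFD2 over MTHFD1 -1.30 and -0.22, ALDH1L2 over ALDH1L1 2.30 and 4.10, and SHMT2 over SHMT1 2.02 and 2.40. MTHFD2L over MTHFD2 was -1.21 with merged exons. With a pseudocount of 1 TPM, ALDH1L2 over ALDH1L1 was 2.55. The length of each gene in the denominator makes the difference by construction in the first 2 settings. The median SD of log2(TPM + 1) over 7 enzymes, 0.18, was 0.084 with median ratio scaling and lay between 0.051 without replicate 3 and 0.22 without replicate 2. The cause was not tested. Of the levels of single enzymes, 11 of 16 moved by more than 1 SD with another length and 4 of 16 with another scaling, and a mean of 3 cannot shift that much when 1 sample is dropped.

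Depth limited MTHFS, with 18 reads in all, and the pathway genes with under 10 reads. Gene-level TPM shows neither transcripts nor protein, and enzyme activity was not measured.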
